A study of Drosophila melanogaster with 8 samples.

Results

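Heads of drug-fed flies were studied after 4 days of withdrawal, on day 14 of the experiment, against heads of control flies of the same day. The arrays were chosen by their labels alone, which name 4 of the 8 arrays of the series as taken after the return to normal food. The drug-fed group were unmated Oregon-R wild-type males of Drosophila melanogaster, 3 to 4 days old at the start, that ate 8 mg/ml pentylenetetrazole for 7 days, 24 mg/ml vigabatrin for 3 days and normal food for 4 days. Their controls were males of the same strain and cultures kept on normal food for the same 7, 3 and 4 days, and both groups were moved to new vials on the same days. The other 4 arrays hold flies with the same drug sequence taken at its end, on day 10, against controls of that day. All groups thus shared strain, sex, age at the start and the changes of vial, and no group received only 1 of the 2 drugs.

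Pentylenetetrazole provokes convulsions by blocking the chloride channels that GABA opens. Vigabatrin, used against epilepsy, irreversibly inhibits GABA transaminase, the enzyme that breaks GABA down. A fly head holds the brain and the eyes together with fat body, muscle, cuticle-forming cells and blood cells, so a head extract reads all of them. The head fat body stores lipid and protein, makes antimicrobial peptides and carries out much of the detoxification of ingested compounds. The comparison asks which transcripts still differ from those of controls once both drugs have been withdrawn.

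Each array set 1 pool of drug-fed heads against 1 pool of control heads, collected from vials that began with 30 flies, and the labels call the 4 arrays of a day biological replicates. Treated RNA carried the dye Cy5 on arrays 1 and 2 and Cy3 on arrays 3 and 4. Values below are log2 ratios of drug-fed over control after subtraction of each array's median, so a value below 0 is lower in drug-fed heads relative to the median clone of that array. Their direction was taken from the order of the channels in the labels and is likely rather than certain. Values were present for 9266, 15595, 15866 and 13282 spots on arrays 1 to 4, and Spearman coefficients between both spots of each clone were 0.84, 0.69, 0.67 and 0.67. Arrays 3 and 4 resembled each other more (Pearson r = 0.71 over 3265 clones) than did arrays 1 and 2 (0.38), and arrays of opposite dye orientation had 0.13 to 0.16. Of the marker genes for head cell types, 4 of 6 photoreceptor, 4 of 5 glial, 4 of 4 fat body, 2 of 4 muscle, 2 of 3 haemocyte and 1 of 5 neuronal genes had a value on at least 1 day-14 array. The pan-neuronal gene elav and the opsin gene ninaE were among those with no named clone. Ratios say nothing of their absolute level. Pools of whole heads cannot tell fewer cells of a type from less RNA per cell.

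In the direction chosen here, transcripts of the antifungal peptide drosomycin (Drs) and the purine enzyme gene Paics were lower in drug-fed heads after withdrawal. Neither passed with the ratios read in the other direction or without a dye term. Of 36 cytochrome P450 genes 6 were lower and 1 higher, and of 35 cuticle genes 5 were higher and 2 lower. The fat body and lipid list had 4 of 16 genes lower, and the sugar enzyme list 3 of 15. Over all genes tested 7.47% passed. The calls of FASN3, Galk and 3 of the higher cuticle genes rest on 1 array each. A clone-by-clone test with a dye term (limma) covered the 5674 clones with values from 3 or 4 arrays. Of these, 415 (7.31%) passed an adjusted p of 0.05. There were 203 (3.58%) higher and 212 (3.74%) lower, with a median size of 0.48 and 0.47 on the log2 scale. An unadjusted p under 0.05 was reached by 1725 clones (30.4%). Passing clones carried 252 different named genes. With 1 clone per gene, 114 of 3252 genes rose (3.51%) and 129 fell (3.97%).

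How firmly a clone can be read differed between the directions. Of the lower clones 166 were measured on all 4 arrays and 46 on 3, and of the higher clones 100 and 103. With 3 arrays, 1 dye orientation rests on a lone array, which the model fits exactly, so that the error comes from the other pair alone. With 4 arrays the error comes from the spread within each dye pair, since a difference between the pairs goes to the dye term. An SE given below is therefore not the spread over all 4 arrays. In 69 of the 103 higher clones on 3 arrays (67.0%) the lone array's value was over 2 times as large as those of the others, against 21.7% of all clones tested on 3 arrays. That lone array was replicate 2 in 72 of the 103. The sign was not the same on all 3 arrays in 29 of the higher and 3 of the lower of these clones. Passing clones on 4 arrays went the other way, with 1 sign on every array in 98 of 100 higher and 140 of 166 lower. No clone passed without the dye term, where 980 reached an unadjusted p under 0.05, and 7 passed without replicate 4. Among clones on 4 arrays tested by themselves, 265 of 3265 passed (8.12%), 96 higher and 169 lower.

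**Figure D1:**
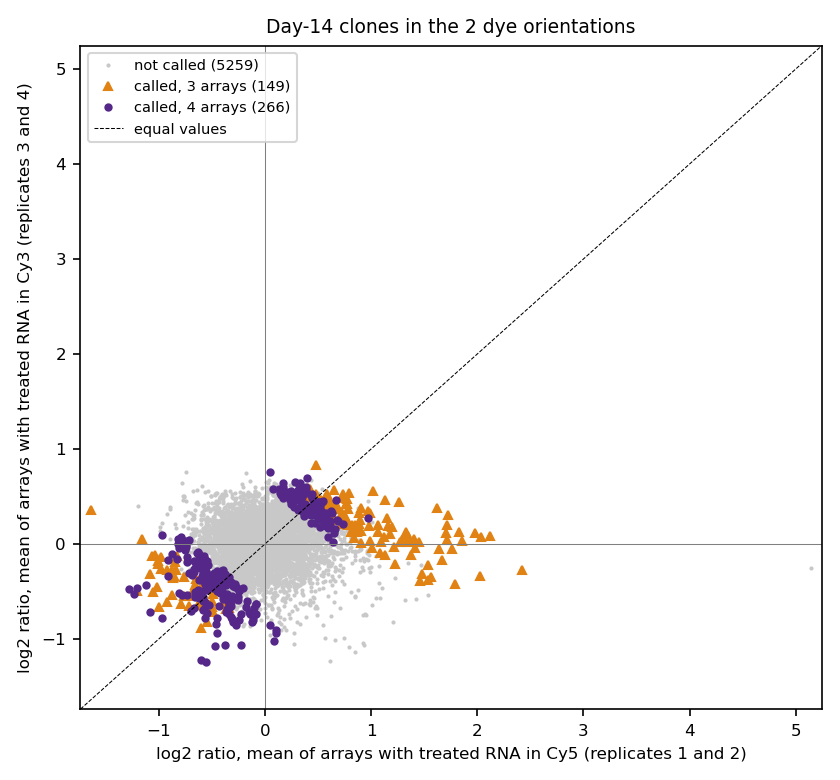
Each point is a day-14 clone, placed by its mean log2 ratio of drug-fed over control heads on the arrays with treated RNA in Cy5 (horizontal) and on those with treated RNA in Cy3 (vertical). The 266 called clones on 4 arrays (purple circles) lie mostly near the diagonal of equal values, and many of the 149 called clones on 3 arrays (orange triangles) lie far along the horizontal axis with a vertical value near 0.

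Position on the slide mattered too. Ratios of adjacent clones were correlated on each array, and 59 of 293 passing clones with a tested row neighbour (20.1%) had one that passed in the same direction. The background share of clones with any passing neighbour was 9.04%. When each clone was set against the median of its neighbours, called local centring here, 83 of 5417 clones passed (1.53%), 20 higher and 63 lower. The same ratios without any centring gave 588 higher and 265 lower, and centring on print blocks gave 194 higher and 360 lower. The balance between increases and decreases therefore depended on the centring.

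A group of 30 clones on 4 arrays passed after array-median centring and also in 7 other settings. The settings were no centring, print-block centring, local centring, clones on all 4 arrays only, both spots required, array weights and capped spots removed. Of the 30 clones, 28 were lower and 2 were higher in drug-fed heads, and 17 carried a named gene. With the ratios read as already turned, the other possible direction, 15 of the 30 had values below 0 and 15 above 0, the sign changed in 17 (8 of the named), and 0 passed in limma. None of the 30 passed without the dye term, and none of those that could be fitted with all 8 arrays passed there. The 7 settings differed in how much they removed. Local centring kept 65 of the 391 passing clones it could test, while requiring both spots kept 414 of 415. The 30 clones are described first, and this choice was made after the values were seen.

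Drs encodes drosomycin, an antifungal peptide that the fat body releases when Toll signalling is active. It had log2 ratios of -1.47, -1.08, -0.36 and -0.59 on arrays 1 to 4. All 4 arrays lay below 0, the pair with treated RNA in Cy5 lower than the other pair. It fell by 0.88 ± 0.10 (SE, n = 4, limma adjusted p = 0.0223), which is 1.83-fold. CG2233, a gene without an assigned function here, had -0.45, -0.66, -1.05 and -1.44, again below 0 on every array but with the Cy3 pair lower. Its decrease of 0.90 ± 0.10 was the largest among the named lower genes (1.87-fold, adjusted p = 0.0223). Both SEs leave out the difference between the dye pairs. Without the dye term the SE was 0.18 for Drs and 0.16 for CG2233, and neither passed (limma adjusted p = 0.184 for each).

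Drs and CG2233 also passed whichever array was left out. Without replicate 1 or 2, every passing clone that could be tested passed again, so only leaving out replicate 3 or 4 separated clones. Drs, CG2233 and Cyp4e2 were the 3 clones that passed when local centring was applied to clones on 4 arrays. Cyp4e2 belongs to the cytochrome P450 family of oxidising enzymes. It had -0.32, -0.77, -0.60 and -0.85, with every array below 0, and fell by 0.64 ± 0.10 (adjusted p = 0.0346).

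Metabolic enzymes followed. Miox encodes myo-inositol oxygenase, which opens the inositol ring, and had -0.48, -0.11, -0.66 and -0.98. Replicate 2 lay nearest to 0 and the fitted decrease was 0.56 ± 0.10 (adjusted p = 0.0346). Paics encodes an enzyme of purine synthesis, and its arrays were close together at -0.53, -0.63, -0.51 and -0.61. It fell by 0.57 ± 0.08 (adjusted p = 0.0334). CG1213 was similarly even, with -0.68, -0.55, -0.71 and -0.43, and fell by 0.59 ± 0.09 (adjusted p = 0.0338).

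Among the remaining lower genes of this group, pst (pastrel), which affects resistance of flies to viruses, had -0.26, -0.57, -0.47 and -0.54 and fell by 0.46 ± 0.09 (adjusted p = 0.0348). Jhbp14, named as a juvenile hormone binding protein, fell by 0.43 ± 0.09 in this clone, with values from -0.82 to -0.24, while a second clone on 3 arrays had 0.04 (adjusted p = 0.805). CG4757, CG16926, CG7065, CG9663, CG44014 and CG11400 have no function assigned here and fell by 0.88, 0.70, 0.67, 0.56, 0.48 and 0.40, each below 0 on every array.

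A pair of genes in the group had 1 array above 0. Iris, which derives from a retroviral envelope gene, had 0.07, -0.30, -0.77 and -0.71 and an estimate of -0.43 (adjusted p = 0.0397). CG13784 had -0.83, -0.82, 0.03 and -0.35 and an estimate of -0.49 (adjusted p = 0.0348), and its second clone had -0.07 (adjusted p = 0.70). The named gene that was higher was CG15822, of no assigned function here, with 0.37, 0.50, 0.61 and 0.42 and a rise of 0.48 ± 0.08 (adjusted p = 0.0346). All 4 of its arrays lay above 0.

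**Figure D2:**
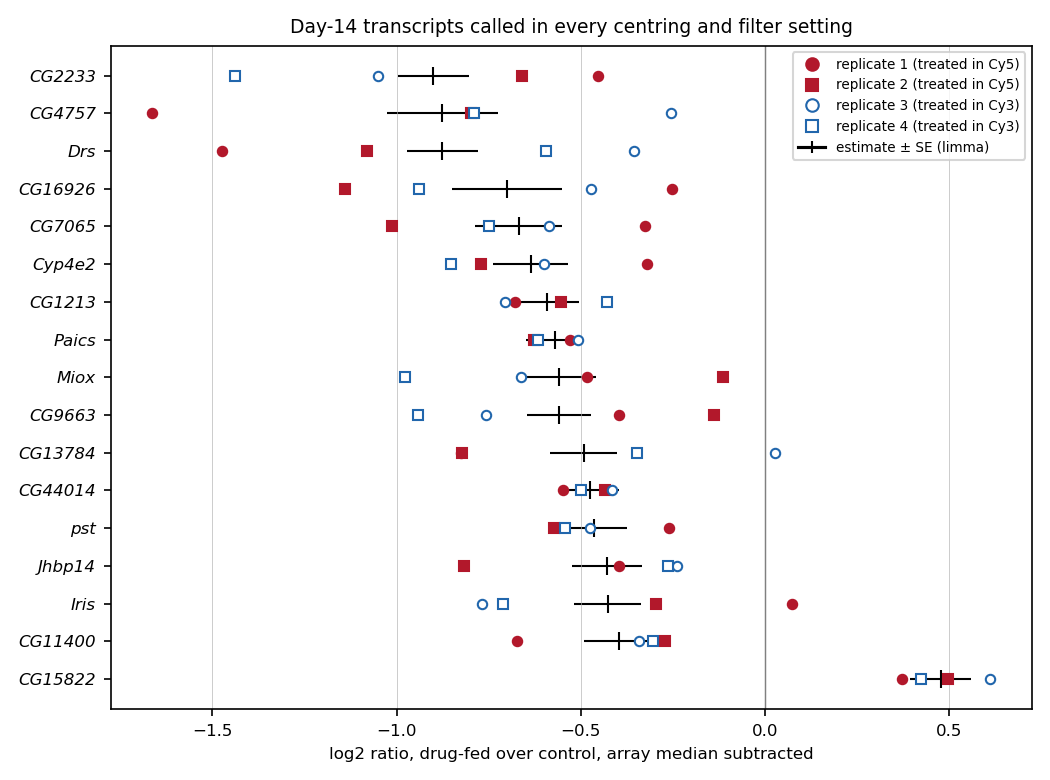
Log2 ratio of drug-fed over control heads at day 14 (horizontal) for the 17 named genes that also passed in the 7 other settings, 1 gene per line, with 1 point per array (filled: treated RNA in Cy5; open: in Cy3) and the limma estimate ± SE in black. The points of Paics and CG44014 lie close together, those of Drs, CG4757 and CG2233 spread over about 1 unit or more, and CG15822 alone lies to the right of 0.

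Further decreases among the largest were less even or rested on 3 arrays. Cyp313a1, a P450 gene, had -0.60, -1.56, -0.27 and -1.15 and fell by 0.90 ± 0.18 (adjusted p = 0.0376), and CG9689 had -0.57, -1.82, -0.33 and -0.59 and fell by 0.83 ± 0.18. Both had replicate 2 as the lowest array. LManII, a lysosomal mannosidase gene, had -0.995, -0.72 and -0.59 on arrays 2 to 4 and fell by 0.83 ± 0.10 (adjusted p = 0.0334). Papss makes the activated sulfate donor of sulfation reactions, and had -0.79, -0.50 and -0.75 on arrays 2 to 4, a fall of 0.71 ± 0.11. CG3604, on arrays 1, 3 and 4, had -0.60, -0.87 and -0.89. In each of these 3 the lone array lay near the others.

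On 4 arrays, a list added after the values were seen held CG4716 at -0.69, sgll at -0.65, GXIVsPLA2 at -0.63 and Nepl14 at -0.62, all passing. The gene sgll (sugarlethal) encodes pyridoxine phosphate oxidase, which makes pyridoxal phosphate, the cofactor of glutamate decarboxylase and of GABA transaminase. It had -0.25, -0.67, -0.65 and -1.03, all below 0, and fell by 0.65 ± 0.11 (adjusted p = 0.0346). After local centring it had -0.42 and no longer passed (adjusted p = 0.0559). GXIVsPLA2 encodes a secreted phospholipase A2 and Nepl14 a neprilysin-like peptidase.

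The largest increases had another make-up. By size the first 12 named higher genes were Osi6, CG4040, Nup214, CG31846, CG2972, Snx1, Regnase-1, Wdr81, CG10013, HBS1, Cpr72Ea and CG7342, with estimates from 1.11 to 0.72, and each was measured on 3 arrays. Osi6, of the Osiris family of insect membrane proteins, had 2.13 on array 2 and 0.13 and 0.05 on arrays 3 and 4, with an estimate of 1.11 ± 0.10 (2.15-fold, adjusted p = 0.0223). Regnase-1, which in mammals encodes a ribonuclease that degrades inflammatory messenger RNAs, had 1.86 on array 2 and 0.03 and 0.05 on the others. These 2 genes were thus high on 1 array and near 0 on both others. CG4040, CG2972, Wdr81, Cpr72Ea and CG7342 had the same make-up, with 1.33 to 2.04 on array 2 and 0.02 to 0.20 on arrays 3 and 4.

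Nup214, a component of the nuclear pore, had 1.72 on array 2 and 0.25 and 0.37 on arrays 3 and 4, and Snx1, a sorting nexin of endosomes, had 1.71, 0.12 and 0.28 on the same arrays. HBS1, whose product rescues stalled ribosomes, had 0.79, 1.25 and 0.56 on arrays 1 to 3. CG10013 had 1.13, 0.41 and 0.52 on arrays 2 to 4, and CG31846 had 1.62, 0.31 and 0.46 on arrays 1, 3 and 4. These 3 were above 0.3 on every array that measured them. The rise of HBS1 by 0.79 ± 0.13 (adjusted p = 0.0346) was the 1 increase that passed without replicate 4, an array on which it had no value. After local centring HBS1 had 0.70 (adjusted p = 0.103).

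Increases on 4 arrays, listed after the values were seen, were smaller and included yem (0.62), CG10038 (0.57), Dhdds (0.50), Utx (0.49), rpk (0.48), Uck (0.47) and E(spl)mbeta-HLH (0.47). The gene yem encodes a chaperone of the replacement histone H3.3 and had 0.71, 1.24, 0.03 and 0.52. Dhdds, which acts in dolichol synthesis for protein glycosylation, had 0.41, 0.38, 0.54 and 0.66, and rose by 0.50 ± 0.08 (adjusted p = 0.0346). Utx, a histone H3 lysine demethylase gene, had 0.63, 0.03, 0.60 and 0.69, while a second clone had 0.33, 0.09, 0.31 and 0.46 and did not pass (adjusted p = 0.0718).

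Both Utx clones lay above 0 on every array and were lowest on replicate 2. The DEG/ENaC channel gene rpk had 0.61, 0.66, 0.50 and 0.16, the uridine kinase gene Uck had 0.51, 0.52, 0.34 and 0.49, and the Notch target E(spl)mbeta-HLH had 0.68, 0.69, 0.13 and 0.36. None of these 7 passed after local centring, where their estimates ran from 0.13 for Uck to 0.60 for yem (adjusted p = 0.387 and 0.0677). They lay in the same direction there.

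**Figure D3:**
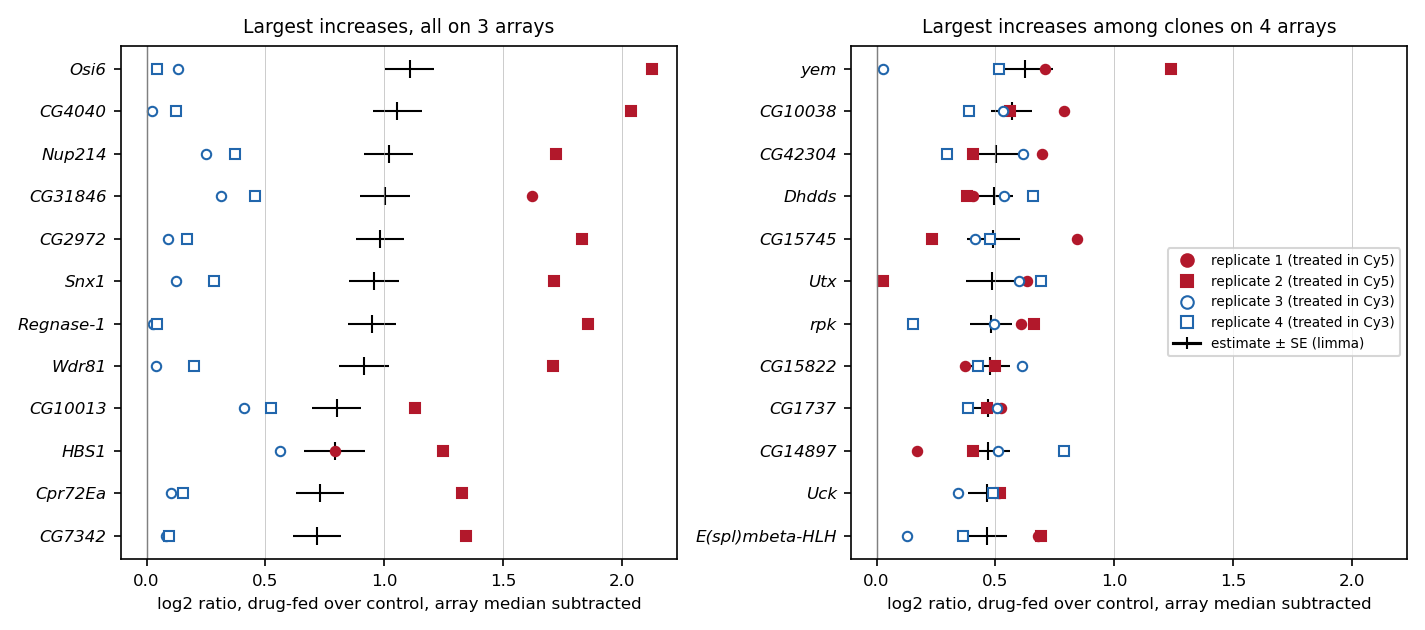
Log2 ratios at day 14 (horizontal) of the 12 named genes with the largest increases, all on 3 arrays (left), and of the 12 with the largest increases among clones on 4 arrays (right), with 1 point per array and the limma estimate ± SE. On the left a single filled point of 1.13 or more stands apart from 2 open points near 0 in most genes, whereas on the right the points of most genes lie together between 0 and 1.

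Gene lists were described by counts and medians, with 1 clone per gene, beside the values for all 3252 genes, whose median was -0.02 and of which 53.1% lay below 0 and 7.47% passed.

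The fat body and lipid list had 4 of 16 measured genes lower and none higher. Its median was -0.16, and 12 genes lay below 0. FASN1, a fatty acid synthase gene, had -0.74, -0.49, -0.43 and -0.64 and fell by 0.57 ± 0.09 (adjusted p = 0.0344). Lsp2, a larval serum protein kept as a store in the adult fat body, had -0.05, -0.84, -0.70 and -0.86 and fell by 0.61 ± 0.13 (adjusted p = 0.0388), with replicate 1 near 0. The desaturase gene Desat1 had -0.38, -0.53 and -0.72 on arrays 1, 3 and 4 and fell by 0.50 ± 0.11 (adjusted p = 0.0431), but its second clone had -0.17 and did not pass (adjusted p = 0.362).

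FASN3, the remaining gene of the 4, had -1.64 on array 1 against 0.35 and 0.37 on arrays 3 and 4, so its orientations pointed in opposite ways and its estimate of -0.64 rests on array 1. In the other direction apolpp, the lipoprotein precursor, had an estimate of 0.42 that did not pass (adjusted p = 0.0568). After local centring the list median was -0.06 and 1 gene of the list passed, which was FASN3. The fat body markers Fbp1 and Yp1 had values on 2 arrays and were not tested.

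Immune genes had a list median of -0.28, with 10 of 12 below 0, and on the single arrays the median ran from -0.27 to -0.14. Of the 12, Drs alone passed (8.33%). The serpin gene nec, which restrains Toll signalling, had 0.02, -0.38, -0.55 and -0.51 with an estimate of -0.35 (adjusted p = 0.0593). Drsl5, of the drosomycin family, had -0.35, -0.64, 0.09 and -0.33 (adjusted p = 0.0965). Read with the dye roles exchanged, the direction not chosen here, the list median was -0.0024 while Drs kept its sign at -0.40.

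Of the haemocyte genes, 2 were tested. NimC1, a phagocytosis receptor of blood cells, had -1.20, -0.33 and -0.66 on arrays 2 to 4 and fell by 0.85 ± 0.12 (adjusted p = 0.0340), but a second clone had -0.17, 0.16 and 0.16 on the same arrays, with an estimate of -0.0069 (adjusted p = 0.971). The 2 clones of NimC1 therefore gave different values. Col4a1, a collagen gene, had 0.10 (adjusted p = 0.476). The haemocyte marker Hml had no value at day 14 and eater had one on 1 array.

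Cytochrome P450 genes, many of which oxidise foreign compounds, had 6 lower and 1 higher of 36 measured (19.4%), a median of -0.13 and 26 genes below 0. Next to Cyp313a1 and Cyp4e2, the lower genes were Cyp9b2 (-0.54), Cyp6d5 (-0.51), Cyp4ac1 (-0.44) and Cyp6a23 (-0.36). Cyp6d5 had -0.50, -0.59, -0.28 and -0.68, and Cyp4ac1 had -0.33, -0.77, -0.30 and -0.36. A second clone of Cyp4ac1 passed as well, with -0.81, -0.62, -0.43 and -0.19 and an estimate of -0.51 (adjusted p = 0.0346).

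The P450 gene that was higher, Cyp12d1-d, had 1.09 on array 2 against 0.03 and -0.21 on arrays 3 and 4, and it has a near-identical copy, Cyp12d1-p, that a cDNA probe may not separate. After local centring 2 genes of the list passed, Cyp4e2 and Cyp6a23. The list of glutathione, UDP-glycosyl and antioxidant enzymes had a median of -0.14 and 18 of 23 genes below 0. GstD9, a glutathione transferase gene, was the 1 that passed, with -0.46, -0.43, -0.34 and -0.22 and a fall of 0.36 ± 0.08 (adjusted p = 0.0408).

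Of 15 genes of glycolysis, glycogen and trehalose, 3 fell and none rose, at a median of -0.05. UGP makes UDP-glucose, the donor for glycogen and trehalose, and had -1.05, -0.35 and -0.67 on arrays 1, 3 and 4, a fall of 0.78 ± 0.12 (adjusted p = 0.0346). Galk, the galactokinase gene, had -1.03 on array 2 and -0.06 and -0.17 on arrays 3 and 4, so its fall of 0.57 rests on array 2. Gpdh1, a glycerol-3-phosphate dehydrogenase gene, had -0.58, -0.65, -0.11 and -0.64 and fell by 0.49 ± 0.10 (adjusted p = 0.0388).

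Genes of the tricarboxylic acid cycle had a median of -0.23 with 5 of 8 below 0, and none passed. The nearest, Idh3b of the mitochondrial isocitrate dehydrogenase, had -0.42, -0.59 and -0.39 on arrays 2 to 4 (adjusted p = 0.0538). Of 27 oxidative phosphorylation genes, 18 lay below 0 at a median of -0.10. COX6CL, a cytochrome oxidase subunit gene, was the 1 that passed, as higher, with 2.03 on array 2 against -0.24 and -0.44 on arrays 3 and 4. Its orientations had opposite signs.

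In the glial and blood-brain barrier list, 1 of 10 genes fell and 1 rose, around a median of -0.05. Tret1-1, a trehalose transporter that brings sugar across the barrier glia, had -0.80, -0.50, -0.53 and -0.47, all below 0, and fell by 0.58 ± 0.09 (adjusted p = 0.0340). After local centring it had -0.33 (adjusted p = 0.0997). Tsf2, a transferrin of septate junctions, had 0.87 on array 2 and 0.21 and 0.05 on arrays 3 and 4, with an estimate of 0.50. The astrocyte marker alrm had -0.40 and did not pass (adjusted p = 0.117).

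Genes of neurotransmission showed few passing changes. Gad1, which makes GABA, had -0.20, -0.15, -0.27 and -0.20 and an estimate of -0.21 ± 0.08 (adjusted p = 0.129). Every array of this clone lay below 0, but a second clone measured on arrays 3 and 4 had 0.19 and 0.43. Gabat, the gene of GABA transaminase and so of the target of vigabatrin, had -0.12 on array 1 and 0.37 on array 3 and was not tested. Lcch3, a subunit of the GABA-gated channels, had -0.28, -0.39 and 0.02 on arrays 1 to 3 (adjusted p = 0.336), and no clone is annotated as either of the subunits Rdl or Grd.

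All 5 glutamate genes tested lay below 0, between -0.28 and -0.10, and none passed. Gs1, a glutamine synthetase gene, had -0.23, -0.34, -0.29 and -0.25 (adjusted p = 0.0718). The median was -0.16, and -0.04 after local centring. Of 10 monoamine genes, speck alone passed. It encodes the N-acetyltransferase that inactivates dopamine and serotonin, had -0.35, -0.33, -0.51 and -0.95, and fell by 0.54 ± 0.10 (adjusted p = 0.0346; 0.0688 after local centring). The serotonin receptor gene 5-HT1A had 0.58, 0.0035, 0.48 and 0.53, with an estimate of 0.40 (adjusted p = 0.0632).

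No gene passed among 3 acetylcholine, 10 synaptic vesicle, 10 ion channel and pump, 10 neuropeptide, 5 learning and cAMP, 14 phototransduction and 5 clock genes. Their medians ran from -0.07 to 0.12. The largest of the channel genes was stj, a calcium channel subunit gene, at 0.41, with 0.80 on array 1 against 0.03 and 0.02 on arrays 3 and 4 (adjusted p = 0.0593). In phototransduction laza, a lipid phosphatase gene, had 0.11, 0.24, 0.71 and 0.39 (adjusted p = 0.0535), while the arrestin gene Arr1 had -0.35 (adjusted p = 0.162). Insulin-like peptide gene Ilp2 had -0.13, -0.46 and -0.34 on arrays 1, 3 and 4 (adjusted p = 0.145).

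Housekeeping lists held single passing genes. RpL27 of the cytoplasmic ribosome had -0.41, -0.40, -0.44 and -0.55 and fell by 0.45 ± 0.08 (adjusted p = 0.0346), 1 of 18 genes of a list with a median of -0.12. Of the mitochondrial ribosome mRpS18B, with -0.28, -0.40, -0.57 and -0.59, fell by 0.46 ± 0.08, 1 of 26. The proteasome subunit Prosbeta7 had -0.49, -0.57, -0.44 and -0.24 and fell by 0.44 ± 0.08, 1 of 17.

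These 3 genes lay below 0 on every array, and after local centring none passed (adjusted p = 0.133, 0.101 and 0.0556). Among 25 genes of endosomes, autophagy and the proton pump, Lamp1, a lysosomal membrane protein gene, had an estimate of -0.55 and passed. Vha44, a subunit of the V-ATPase, had 0.59, 0.27, 0.32 and 0.28 and rose by 0.37 ± 0.09 (adjusted p = 0.0486), but its second clone had 0.51, -0.24, -0.17 and -0.54 (estimate -0.11, adjusted p = 0.608). None of 23 translation factor and tRNA synthetase, 12 spliceosome, 6 heat shock, 3 cytoskeleton, 10 muscle and 6 testis and accessory gland genes passed.

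Cuticle genes had 5 higher and 2 lower of 35 measured, with a median of 0.10 and 24 above 0. TwdlF, of the Tweedle family of cuticle proteins, had 0.53, 0.39, 0.58 and 0.27 and rose by 0.44 ± 0.09 (adjusted p = 0.0363). Cpr97Ea had 0.57, 0.59, 0.25 and 0.30 and rose by 0.43 ± 0.08 (adjusted p = 0.0348). These 2 were above 0 on all 4 arrays. The other 3 higher genes were on 3 arrays with a lone high value on array 2, which was 2.13 for Osi6, 1.33 for Cpr72Ea and 1.22 for Cpr50Cb.

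The lower cuticle genes were Cpr67B, with -0.88, -0.26 and -0.82 on arrays 1, 3 and 4, and TwdlE, with -0.74, -0.46, -0.12 and -0.23. After local centring 1 of the 35 passed, which was Osi6. Of 19 odorant-binding and chemosensory genes Ir47a, an ionotropic receptor gene, rose by 0.33 ± 0.08 (adjusted p = 0.0496), with 0.17, 0.32, 0.39 and 0.45. The list of 8 midgut enzymes was chosen to read carry-over of gut tissue. Its maltase gene Mal-A2 had 0.31, 0.59, 0.44 and 0.22 and rose by 0.39 ± 0.09. LManII, already described as a lysosomal mannosidase gene, fell, and the Jon genes and thetaTry of the list did not pass. How far gut tissue moved with other results was not tested.

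**Figure D4:**
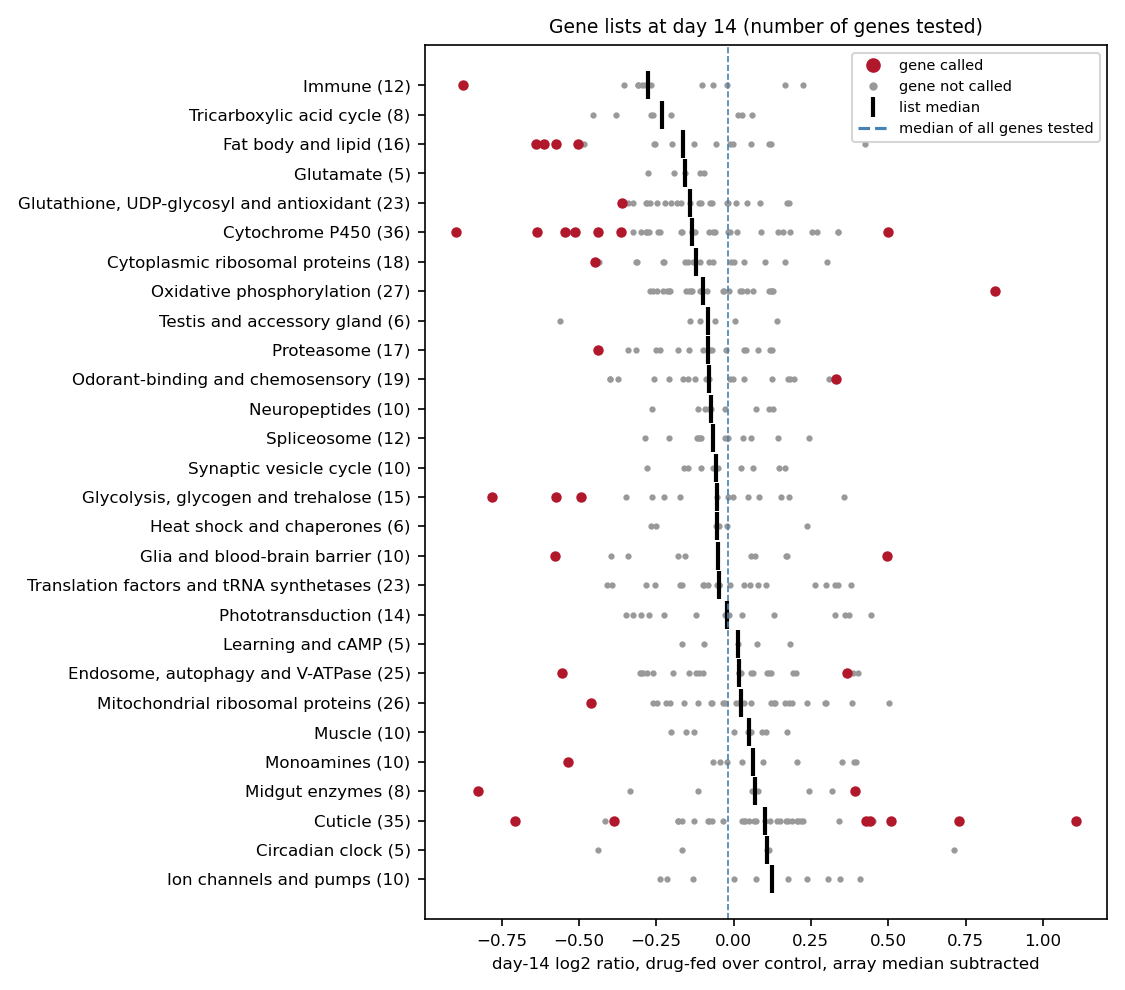
Day-14 log2 ratio of drug-fed over control heads (horizontal) for every tested gene of the lists with at least 5 tested genes, 1 list per line with its number of genes, ordered by list median (black bar). Red points passed the test and grey points did not; the dashed line is the median of all genes tested, -0.02. The immune, tricarboxylic acid cycle and fat body lists have the lowest medians in this direction of the ratio (-0.0024, 0.013 and 0.085 if read as already turned), and the red points of the fat body list and all but 1 of the P450 list lie below 0.

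The withdrawal arrays were last set against those at the end of the drugs. No clone of 4563 passed for day 14 minus day 10 (0%, smallest adjusted p = 0.289), and 485 (10.6%) reached an unadjusted p under 0.05, 206 above and 279 below. Without centring, the median difference of all clones was 0.28, which array-median centring removes. The SE of the difference was 0.31 for CG2233 and 0.21 for Drs, and a difference of 0.69 for CG2233 did not pass (adjusted p = 0.47). The days share no pool, but they share the dye scheme and the slide layout. Across the 4563 clones the estimates of day 14 and day 10 had a Spearman coefficient of 0.33, given as a description. Day 10 fitted alone in the same way passed none of 7470 clones, where 1070 reached an unadjusted p under 0.05.

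Of 363 clones that passed at day 14 and were also measured at day 10, 295 (81.3%) had the same sign at day 10, against 61.8% of all clones. For the lower clones the median was -0.47 at day 14 and -0.31 at day 10. For the higher clones it was 0.48 at day 14 and 0.13 at day 10. The clones of both directions were chosen by their day-14 values, which by itself makes day-10 values tend towards 0. The difference between these directions was not tested.

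A set of 9 genes that an earlier analysis of the same arrays had called lower at day 10 was followed to day 14. In the direction chosen here, all 9 lay below 0 at day 14. Read as already turned, CG2233, CG16926, Miox, Lsp2, sxe2, Cyt-b5-r and Obp99b lay above 0 there, and Tret1-1 and Drsl5 below. The values that follow are in the direction chosen here. CG2233 had -0.90 at day 14 and -1.59 at day 10, CG16926 -0.70 and -1.29, and Miox -0.56 and -1.04. Lsp2 had -0.61 at day 14 and -0.91 at day 10, and Tret1-1 -0.58 and -0.71. These 5 passed at day 14, and in the day-10 fit used here none of the 9 did (adjusted p = 0.212 to 0.228). The male-head lipase-family gene sxe2 had -0.48 at day 14 and -1.10 at day 10, the cytochrome b5-related gene Cyt-b5-r -0.42 and -1.06, the odorant-binding gene Obp99b -0.26 and -0.85, and Drsl5 -0.31 and -0.84, and these 4 did not pass at day 14.

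All 9 were nearer to 0 at day 14 than at day 10, but they had been chosen for low day-10 values, which by itself makes later values tend towards 0. None of the 9 differences passed (adjusted p = 0.387 to 0.74). Drs went the other way, with -0.88 at day 14 and -0.53 at day 10, a difference of -0.32 ± 0.21 (adjusted p = 0.579). Paics had -0.57 at day 14 and -0.54 at day 10, and Cyp4e2 -0.64 and -0.49. CG9663 had -0.56 at day 14 and 0.16 at day 10 (adjusted p of the difference 0.408), and CG15822 had 0.48 and 0.02 (0.407).

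**Figure D5:**
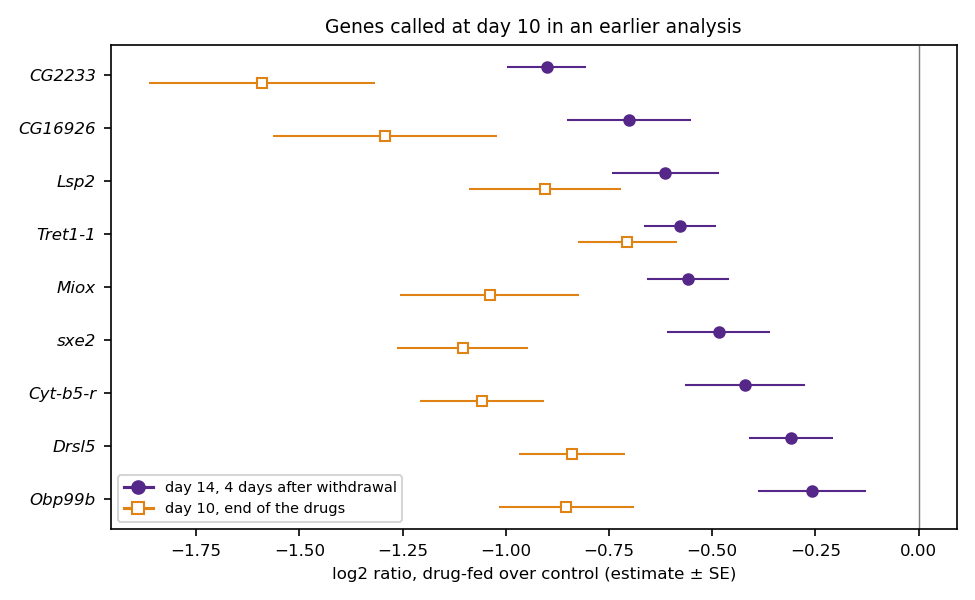
Limma estimates ± SE of the log2 ratio of drug-fed over control heads for the 9 genes called lower at day 10 in an earlier analysis, at day 14 (purple circles) and at day 10 (orange squares), each day fitted alone. The day-14 estimates lie between -0.90 and -0.26 and the day-10 estimates between -1.59 and -0.71, and the bars of the days overlap for Tret1-1 and Lsp2 only.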

How the data were processed

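The authors deposited 1 log2 ratio per spot, made per the submitters' design text with a GenePix 4000 series scanner, Gene Pix Pro 6.0 and the ratio-based normalization of Acuity 4.0, with filters on intensity (100), background (2 times), saturated pixels (3%), regression R2 (0.6) and signal-to-noise (3). The values themselves gave the log2 scale, and 3 spots were capped at 16.61. That text names no test. Scanner intensities were not used here, so signal over background is unknown beyond these filters, and no coordinates are given.

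The 27648 spots made 13824 clones, each the mean of 2 neighbouring spots, since all 7609 annotated neighbour pairs carried the same annotation. Of these, 7558 had 1 gene in the platform annotation, 51 several and 6215 none, and 7447 took their symbol from the RefSeq Release 6 gene table while 111 kept the annotation's. Each ratio was taken as Cy5 over Cy3 from the channels of the labels, and its sign was turned on arrays with treated RNA in Cy3. Direction is likely but not settled by the values: if the deposited ratios were turned already, treatment effect and dye effect exchange roles.

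Array medians, which were 0.0075, -0.105, 0.0785 and 0.237 on the turned day-14 arrays, were subtracted. Clones on at least 3 of the 4 arrays and in both dye orientations were fitted with limma 3.58.1 in R 4.3.3, with a clone-specific dye term and Benjamini-Hochberg adjustment at 0.05 over all clones tested. A clone on 4 arrays leaves 2 residual degrees of freedom and one on 3 leaves 1, to which limma adds a prior of 5.6 from all clones, and the median SE was 0.10. Day 14 minus day 10 was fitted over all 8 arrays. On simulated day-14 ratios of 5674 clones the fit recovered 70% of 50 clones changed by 0.5 on the log2 scale and all 50 changed by 1, with 14 false calls. The simulated noise was independent between clones and had the same spread on every array. On the real arrays ratios of adjacent clones had Spearman coefficients of 0.45 to 0.52, so the simulation does not measure the rate of false calls in these data. The labels call the arrays biological replicates.

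Named were, in each direction, up to 12 genes with the largest values among clones that passed with the same sign on every array that measured them, list members that passed and the 2 of smallest p per list, drug targets with Gad1, and 9 genes called earlier at day 10; further genes are marked as chosen after their values were seen. Gene lists held 1 clone per gene, that on most arrays. Members and lists were chosen with earlier results of these data known. Same-numbered arrays of the 2 days had correlations of deviations of 0.061, 0.212, 0.120 and 0.232, of which the first lay below the 0.1 required of every pair, and some differently numbered arrays of the same dye orientation reached 0.173, 0.201 and 0.164, so the numbers were not taken as pairs. Alternatives were other centrings, no dye term, the other reading of direction, filters, array weights, a replicate block and each array left out.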

Additional observations from a re-analysis of the deposited data

Results flagged for a closer look

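Values were compared within the 4 day-14 arrays for 67 named clones and 28 list medians, and a lone array stood apart, by Dixon's test, in 6 of them. Chance alone gives about 1 in 20. Replicate 2 stood apart for Utx at 0.028, where the other arrays had 0.60 to 0.69, and for Cyp4ac1 at -0.77, where the others had -0.36 to -0.30. It did so as well for the median of the heat shock list, at 0.14, and that of the midgut enzyme list, at 0.19. Replicate 3 stood apart for Gpdh1 at -0.11, where the others had -0.65 to -0.58, and replicate 1 for Vha44 at 0.59, where the others had 0.27 to 0.32.

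Cpr67B, a cuticle protein gene, lay below 0 on all 3 day-14 arrays that measured it (-0.88, -0.26 and -0.82) and above 0 on all 4 day-10 arrays (0.14, 1.10, 0.09 and 0.71). Its difference of day 14 minus day 10 was -1.16 ± 0.29, which did not pass over all clones (adjusted p = 0.34).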

How the results depend on the processing

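The count of passing clones, 415 with 203 higher and 212 lower, moved with most choices. Without centring it was 853 with 588 higher, with print-block centring 360 were lower, and with local centring 83 passed (20 higher, 63 lower). Read as already turned, 106 passed (79 and 27). Among clones on 4 arrays 265 passed, 96 of them higher. In limma without the dye term, alone, with local centring or on 4 arrays (the last 2 added after seeing the data), 0 passed, 980, 777 and 695 having an unadjusted p under 0.05, and with all 8 arrays in one fit 0 of 4563 passed (880 unadjusted). All 4 arrays with local centring, also added, left 3, all lower. With 1 array left out the count ran from 7 without replicate 4 to 1226 without replicate 2 (1 to 592 higher, 6 to 634 lower), with 895 without replicate 1 and 93 without replicate 3. Requiring both spots gave 420, array weights 325 and setting capped spots missing 422. Of the clones that passed, 392 passed without centring, 311 with print-block centring, 65 of 391 with local centring and 40 read as already turned.

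Read as already turned, 34 genes named in the text changed sign: Arr1 0.55, CG2233 0.34, Iris 0.31, CG9663 0.29, cry 0.26, Miox 0.26, CG4716 0.24, speck 0.19, sgll 0.19, nec 0.18, Lsp2 0.17, CG3604 0.14, Ilp2 0.13, Desat1 0.12, mRpS18B 0.12, Cyp4e2 0.091, RpS28b 0.075, l(2)efl 0.052, RpL27 0.047, pst 0.046, Idh3b 0.036, Gad1 0.032, sxe2 0.010, Cyt-b5-r 0.0059, CG16926 0.0040 and Obp99b 0.0028 lay above 0, and CG15822 -0.042, Ir47a -0.086, Dhdds -0.10, 5-HT1A -0.10, Utx -0.16, CG14897 -0.18, laza -0.19 and Col4a1 -0.34 below. The cause was not tested. For day 14 minus day 10, 0 clones passed in limma with the replicate block (363 unadjusted, against 485 without it), and 2 passed without day-10 replicate 3, the range with 1 array left out being 0 to 2. Depth over background is not known, and a clone on 3 arrays has no second array in 1 orientation.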

Other observations

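Some clones outside the lists had nearly equal ratios on all 4 day-14 arrays in the direction chosen here. Such evenness depends on that direction, and read as already turned CG1737 had 0.024 (limma adjusted p = 0.88). CG44014 had -0.55, -0.44, -0.42 and -0.50, and CG1737 had 0.53, 0.46, 0.51 and 0.39, with an estimate of 0.47 (limma adjusted p = 0.0346). After local centring CG1737 had 0.19 (adjusted p = 0.195), while CG44014 had -0.42 and passed (adjusted p = 0.0490). The clock gene cry, whose product is the blue-light receptor of clock neurons, had 0.32, -0.67, -0.58 and -0.83 (adjusted p = 0.107), so replicate 1 alone lay above 0. Pdp1, a clock transcription factor gene, had 2.28 on replicate 1 and -0.33, 0.43 and 0.48 on the others (adjusted p = 0.205). The small heat shock protein gene l(2)efl had -0.30, -0.13, -0.24 and -0.39, all below 0, and did not pass (adjusted p = 0.0859). Of 17 genes with several tested clones and at least 1 that passed, all clones had the same sign in 14, and all clones passed in 1.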
